A study of Mus musculus with 81 samples.

Results

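Wild-type (WT) bone marrow cells were followed over the first sampled step of their culture into bone marrow-derived macrophages (BMDMs), from day 3 to day 5. The comparison took the 6 libraries of the time course whose titles give the genotype WT and day 3 or day 5, 3 at each day, of 81 libraries in the series. The samples carry the label BMDM progenitors. Per the study's methods, WT stands for H3f3a fl/fl H3f3b fl/fl mice, in which both genes for histone H3.3 carry loxP sites and no LysM-cre is present, so that the floxed alleles were intact at both days. The mice had a C57BL/6 background, were young adults of both sexes, and the labels give no age for a library. Marrow flushed from femurs and tibias was treated with ACK buffer, which lyses red cells, and grown in DMEM/F-12 with serum and L929 conditioned medium, whose active component is M-CSF. The titles call the 3 libraries of a day biological replicates and name no mouse, so that p-values measure only the spread between libraries. That spread was estimated over all 18 libraries of the time course, which include H3.3 conditional knockouts and day 7.

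Whole marrow holds stem and progenitor cells, immature and mature granulocytes, monocytes, megakaryocytes and lymphocytes. M-CSF acts through its receptor CSF1R to keep cells of the monocyte line alive and dividing, whereas cells that lack the receptor receive no such signal. As monocyte precursors mature they stop making the proteases of the primary granules, which belong to the promyelocyte and to the early monocyte precursor, and take on the receptors, lysosomal enzymes and transcription factors of macrophages.

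Counts assigned to genes ran from 16189674 to 18440728 per library on day 3 and from 15687100 to 18333377 on day 5, so the 2 groups were of like depth. Levels below are in CPM, the counts of a gene per 1000000 counts of its library after scaling by TMM (trimmed mean of M-values), listed for replicates 1, 2 and 3 in that order. Several features of the libraries moved with the day. Reads outside annotated genes made up 7.22% to 11.9% of all reads on day 3 and 13% to 17.7% on day 5. Mitochondrial genes took 1.10% to 1.25% of the counts on day 3 and 2.39% to 3.32% on day 5. The TMM factors were 0.907 to 0.976 on day 3 and 1.06 to 1.07 on day 5. The part of these differences in the gene results was not tested. Among the 3 day 5 libraries, replicates 2 and 3 were close, with a chi-square per degree of freedom of 3.67 over their genes, against 37.0 and 41.3 for either with replicate 1 and 16.2 to 35.0 among the day 3 libraries. A value of 3.67 is above sampling noise, and they were counted as 2 libraries as labelled. It does not show that they came from separate cultures, and with both summed into 1 library 79 genes were called in place of the 422 below. Replicate 1 of day 5 stood apart. Scd1, a fatty acid desaturase, was at 188 CPM there and at 0.828 and 0.412 CPM in the other 2. Id1 and Id3, inhibitors of basic helix-loop-helix factors, were at 2.09 and 0.417 CPM there and at 66.7 to 71.6 and 49.1 CPM in the others. These 3 genes were chosen after their values were seen.

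Between day 3 and day 5, losses outnumbered gains. Of 15955 genes tested with edgeR's quasi-likelihood test, 422 passed a Benjamini-Hochberg adjusted p of 0.05 (2.64%), with 326 lower on day 5 (2.04%) and 96 higher (0.602%). A gene that passed is called below, and only called genes are said to rise or fall. An unadjusted p under 0.05 was reached by 3286 genes (20.6%). The 326 genes that fell did so by a median of 1.85 on the log2 scale and the 96 that rose had a median log2 change of 1.0, while the median over all tested genes was 0.03. The ranges of the 2 groups did not overlap for 420 of the 422 called genes and for 5601 genes in all (35.1%). With a log2 change of at least 1 as a further condition, 296 genes were called (1.86%), 49 higher (0.307%) and 247 lower (1.55%). DESeq2 on the same counts called 956 genes. The number of calls rested on single libraries: without day 3 replicate 3 it was 59, without day 3 replicate 2 it was 242, and without day 5 replicates 1, 2 or 3 in turn it was 72, 51 and 65. Direction was compared only for genes called both in the full fit and in a fit without a library, and none of these changed direction. Of the 422 genes, 38 were called in all 6 fits without a library, 35 lower and 3 higher. Where 1 library is named below beside an adjusted p without it, that fit gave the highest adjusted p of the 6. Other fits can have lost the call as well.

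**Figure D1:**
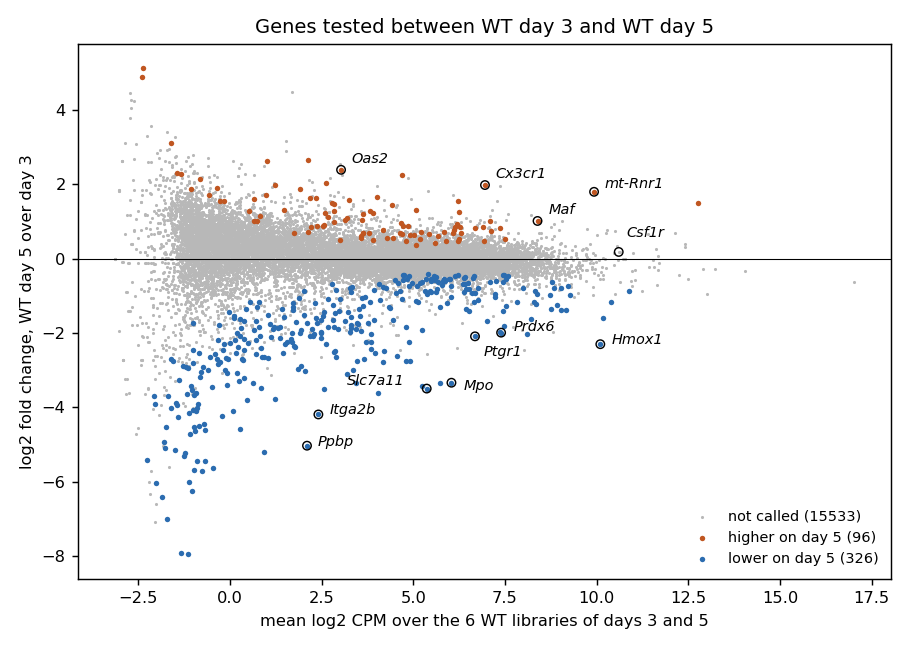
Each point is a gene; the x axis is its mean log2 CPM over the 6 WT libraries and the y axis the log2 fold change of day 5 over day 3. The 326 called genes below 0 outnumber the 96 above it and reach further from 0, and Csf1r lies close to 0. Fitted values of genes with almost no counts on one day, at the left, depend on the small count that edgeR adds.

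Genes of the primary granules were among the largest losses. Mpo encodes myeloperoxidase, and Elane, Prtn3 and Ctsg encode the serine proteases neutrophil elastase, proteinase 3 and cathepsin G. In 15 genes of the granule protein precursor list, 14 were tested, 11 fell and none rose, with a median log2 change of -2.90. Mpo was at 171, 186 and 278 CPM on day 3 and at 19.4, 18.5 and 25.0 CPM on day 5. Elane was at 129, 156 and 224 CPM and then at 13.8, 16.1 and 20.7 CPM. Every day 3 library lay several-fold above every day 5 library for both genes, and replicate 3 was the highest on each day. Prtn3 was at 96.6, 99.3 and 178 CPM on day 3 and at 11.7, 11.4 and 12.0 CPM on day 5. Ctsg was at 54.6, 46.3 and 72.8 CPM and then at 5.49, 3.97 and 4.64 CPM. The groups again did not overlap. The log2 changes were -3.33 ± 0.49 (SE) for Mpo, -3.33 ± 0.47 for Elane, -3.41 ± 0.51 for Prtn3 and -3.62 ± 0.45 for Ctsg, with adjusted p of 0.0040, 0.0032, 0.0040 and 0.0015, and all 4 kept their call without any single library (highest adjusted p 0.0364, for Mpo without day 5 replicate 2). Ms4a3, a surface protein of granulocyte and monocyte precursors, fell from 17, 17.3 and 25.5 CPM to 1.73, 2.32 and 1.19 CPM, with a log2 change of -3.51 ± 0.47. Nkg7, a granule membrane protein, fell from 3.41, 3.87 and 6.17 CPM to 0.417, 0.221 and 0.309 CPM. The transcription factors Gfi1 and Cebpe, which act in granulocyte precursors, fell by 3.02 and 1.96 on the log2 scale. Gfi1 lost its call in 1 of the 6 fits that left out a library, without day 5 replicate 2 (adjusted p 0.0527). Cebpe lost it in 4, with the highest adjusted p of 0.112 without day 3 replicate 3. Clec12a, an inhibitory lectin receptor found on more mature myeloid cells, was the member with the highest level at 173, 129 and 130 CPM and then 226, 181 and 196 CPM. It was not called (log2 change 0.48, adjusted p 0.17). The summed CPM of the 14 members was 884 to 1234 on day 3 and 353 to 393 on day 5.

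The promoters of these 4 granule genes are shown because the genes fell together. They are the RefSeq sequences of build GRCm38.p6 from 250 bases before to 50 bases after the start. Capitals mark GAGGAA on the printed strand, the core of sites bound by PU.1 and other ETS factors, searched on both strands after the values were seen. The windows are chr11:87793534-87793833 (plus strand) for Mpo, chr10:79886062-79886361 (plus) for Elane, chr10:79879417-79879716 (plus) for Prtn3 and chr14:56102525-56102824 (minus) for Ctsg. Elane and Prtn3 are neighbours on chromosome 10.
Mpo: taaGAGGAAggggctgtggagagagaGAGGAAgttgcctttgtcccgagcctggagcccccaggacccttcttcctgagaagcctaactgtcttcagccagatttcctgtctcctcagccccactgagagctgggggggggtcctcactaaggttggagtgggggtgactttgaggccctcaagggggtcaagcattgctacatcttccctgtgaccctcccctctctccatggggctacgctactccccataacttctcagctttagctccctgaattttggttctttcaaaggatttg
Elane: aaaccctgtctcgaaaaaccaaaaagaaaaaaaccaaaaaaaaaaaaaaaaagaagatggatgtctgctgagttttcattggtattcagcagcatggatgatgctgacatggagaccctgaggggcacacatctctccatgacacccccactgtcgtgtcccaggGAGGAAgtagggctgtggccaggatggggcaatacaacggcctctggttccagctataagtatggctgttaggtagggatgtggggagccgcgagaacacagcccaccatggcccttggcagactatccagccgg
Prtn3: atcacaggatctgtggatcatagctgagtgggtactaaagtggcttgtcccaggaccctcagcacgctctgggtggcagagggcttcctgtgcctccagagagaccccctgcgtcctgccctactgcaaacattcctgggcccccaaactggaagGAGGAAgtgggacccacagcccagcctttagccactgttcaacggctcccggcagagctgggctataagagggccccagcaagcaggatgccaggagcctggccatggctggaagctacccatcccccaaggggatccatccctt
Ctsg: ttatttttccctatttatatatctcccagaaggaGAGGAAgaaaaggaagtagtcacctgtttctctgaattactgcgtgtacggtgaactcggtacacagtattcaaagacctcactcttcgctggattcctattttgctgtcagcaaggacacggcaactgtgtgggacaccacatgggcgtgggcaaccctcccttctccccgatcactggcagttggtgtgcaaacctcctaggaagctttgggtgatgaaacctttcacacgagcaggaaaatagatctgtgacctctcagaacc
All 4 windows held GAGGAA, and Mpo held it at 2 places in capitals. It was in 58.3% of the 12 matched genes of the list, in 38.4% of the 242 matched genes that fell, in 31.0% of the 71 that rose and in 31.0% of the 10605 tested genes with a promoter in the table. A match of letters is a description and does not show binding.

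Genes of stem and progenitor cells followed in part. Of 18 progenitor genes, all tested, 5 fell and none rose, with a median log2 change of -1.04. Myb, a transcription factor of immature blood cells, was at 13.4, 15.8 and 22 CPM on day 3 and at 2.15, 3.03 and 3.87 CPM on day 5, with no overlap (log2 change -2.49 ± 0.33, adjusted p 0.0023, at most 0.0206 without any 1 library). Kit, the receptor of stem cell factor, went from 9.53, 9.49 and 15.9 CPM to 2.98, 2.48 and 2.53 CPM. Its groups did not overlap (log2 change -2.13 ± 0.46, adjusted p 0.025). The call was lost in 4 of the 6 fits that left out a library, with the highest adjusted p of 0.123 without day 3 replicate 3. Gata2, Erg and Nrgn also fell. Cd34, a surface marker of progenitors, did not separate the days, with 3.41, 14.9 and 14.1 CPM on day 3 and 0.894, 19.6 and 20.2 CPM on day 5. The first replicate was the low one on both days. Cdk6, a cyclin-dependent kinase of cycling progenitors and the member with the highest level, was at 394, 400 and 442 CPM and then 359, 420 and 428 CPM (log2 change -0.03). The list's median was -0.20 when genes under a mean of 1 CPM were left out, by which fewer members are tested.

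Monocyte genes were divided, and neutrophil genes were mostly lower on day 5. Of 17 tested genes of the monocyte stage 5 fell and none rose. Ly6c2, a surface protein of the inflammatory monocyte, was at 44.9, 66.7 and 83.6 CPM on day 3 and at 14.7, 12.7 and 13.9 CPM on day 5, with no overlap (log2 change -2.24 ± 0.51, adjusted p 0.031, 0.133 without day 3 replicate 3). Vcan, a matrix proteoglycan made by monocytes, was at 27.3, 59.1 and 82.3 CPM and then at 9.18, 20.5 and 17.8 CPM, and fell by 1.83 on the log2 scale. Plac8 fell as well. By contrast Ccr2, the receptor by which monocytes leave the marrow, was at 25.5, 121 and 78.9 CPM and then at 86.0, 126 and 128 CPM, so the groups overlapped and the gene was not called. F13a1, a coagulation factor of monocytes, had 130, 193 and 153 CPM and then 42.5, 183 and 183 CPM, with the low value in day 5 replicate 1. Among 25 neutrophil genes 10 fell and none rose, with a median log2 change of -1.83 and a summed level of 1930 to 3505 CPM on day 3 and 723 to 808 CPM on day 5. Camp, a peptide of the secondary granules, was at 36.6, 95.2 and 115 CPM and then at 10.4, 13.5 and 13 CPM (log2 change -2.74 ± 0.51, adjusted p 0.014, 0.0714 without day 5 replicate 1). Ngp, another secondary granule protein and the member with the highest level, was at 428, 577 and 680 CPM and then at 153, 131 and 132 CPM. S100a8, a calcium-binding protein of neutrophils and monocytes, fell from 218, 310 and 476 CPM to 102, 79.2 and 75.1 CPM, whereas its partner S100a9 missed the threshold (log2 change -1.92, adjusted p 0.069) although its groups did not overlap. Ly6g, the defining marker of mature neutrophils, was at 0.681, 2.4 and 1.96 CPM on day 3 and at 0.239, 0.331 and 0.361 CPM on day 5, and was not called.

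Markers of cells outside the monocyte line also fell. In such bulk libraries fewer cells of a type and less RNA per cell cannot be told apart. Among 14 tested genes of megakaryocytes and platelets 7 fell and none rose. Ppbp, a platelet chemokine, was at 7.70, 15.6 and 59.9 CPM on day 3 and at 0.656, 0.993 and 0.876 CPM on day 5, and Itga2b, the platelet integrin, was at 6.47, 18.6 and 52.9 CPM and then at 1.43, 1.77 and 1.08 CPM. Both were highest in day 3 replicate 3, lay above day 5 in every library and kept their calls without any 1 library. Without day 3 replicate 3 the median log2 change of the list was -2.32, in place of -3.99. Pf4, another platelet chemokine that is also made by macrophages, held the highest level at 429, 259 and 252 CPM and then 74.5, 179 and 176 CPM and was not called (log2 change -1.13).

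Of 12 tested B lineage genes 7 fell. Rag1, the recombinase of developing lymphocytes, was at 1.43, 2.52 and 1.35 CPM on day 3 and had no count in any day 5 library, which makes it at least 31.9-fold lower against a floor of 3 counts over the group (adjusted p 0.0085). Pax5, the factor that sets B cell identity, was at 1.84, 2.05 and 1.79 CPM and then at 0.119, 0 and 0 CPM. The day 3 libraries thus held like amounts of both transcripts, unlike the platelet genes. Blnk, Ighm, Cd79b, Cd22 and Jchain were not called. Blnk, an adaptor also expressed in macrophages, was at 89.3, 61.1 and 59.6 CPM and then at 93.3, 60.3 and 66.9 CPM. The summed level of the 12 genes was 141, 114 and 112 CPM on day 3 and 201, 79.1 and 86.8 CPM on day 5. Day 5 replicate 1 was thus above every day 3 library. Of 7 tested eosinophil genes 3 fell, among them Prg2, a granule protein, from 9.26, 5.16 and 10.7 CPM to 0.656, 0.276 and 0.876 CPM. Of 11 tested mast cell and basophil genes 4 fell, of which Kit and Gata2 are also progenitor genes. The other 2 were the basophil proteases Mcpt8 and Prss34. Of 10 tested erythroid genes only Hbb-bs, an adult globin gene with a near-identical neighbour, was called, at 0.0681, 0.996 and 1.18 CPM and then 0, 0 and 0.0515 CPM. Of 19 T and NK cell genes 16 were too low to be tested, and edgeR and DESeq2 called none of the other 3, with 1 at an unadjusted p under 0.05. Of 12 tested stromal and endothelial genes 1 fell, Esam. Col1a1, a fibroblast collagen, was at 3.20, 26.0 and 12.1 CPM and then at 8.77, 23.4 and 12.6 CPM.

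**Figure D2:**
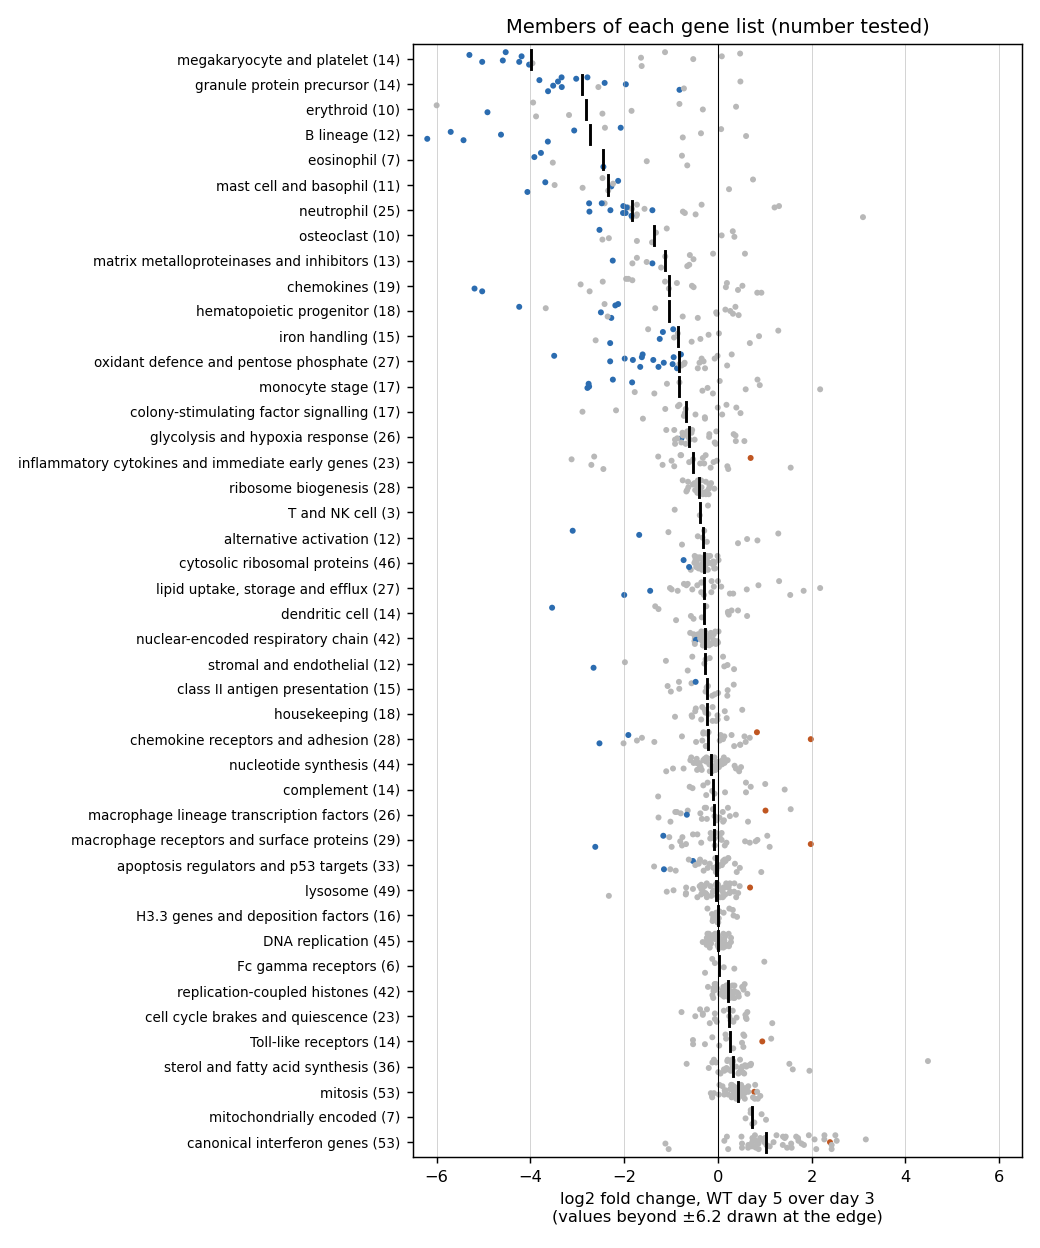
Each point is a tested member of a gene list, placed by its log2 fold change of day 5 over day 3 on the x axis; blue members fell, orange members rose, grey members were not called, and black bars are list medians. The granule, platelet, B lineage and neutrophil lists lie mostly left of 0, the lysosome and H3.3 lists around it, and the interferon list to the right with 1 called member.

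Genes that define macrophages were already high on day 3. Of 29 tested macrophage receptors and surface proteins 1 rose, 2 fell and 26 were not called, with a median log2 change of -0.07. Over all tested genes 0.602% rose and 2.04% fell. Csf1r, the M-CSF receptor, was at 1704, 1468 and 1226 CPM on day 3 and at 1550, 1700 and 1747 CPM on day 5 (log2 change 0.18 ± 0.26, adjusted p 0.70). Adgre1, which encodes F4/80, was at 1375, 685 and 799 CPM and then at 1041, 856 and 883 CPM, and Itgam, which encodes CD11b, at 187, 144 and 168 CPM and then at 175, 173 and 165 CPM. The groups overlapped for all 3 genes, and the fitted change of Adgre1 switched sign in 6 of the other settings. The libraries labelled BMDM progenitors thus held these macrophage genes at high levels on both days, beside the precursor genes above. Mertk, a receptor for dying cells, was at 36.3, 33.0 and 25.1 CPM and then at 78.6, 62.6 and 62.1 CPM; its groups did not overlap, but it was not called (log2 change 1.11 ± 0.37, adjusted p 0.12). Mrc1, the mannose receptor, and the complement genes C1qa, C1qb and C1qc had positive fitted changes between 0.60 and 0.85 and were not called. The member that rose was Cx3cr1, the fractalkine receptor of resident macrophages, at 66.4, 105 and 33.4 CPM on day 3 and at 140, 308 and 362 CPM on day 5. Every day 5 library was above every day 3 library (log2 change 1.98 ± 0.50, adjusted p 0.045), and the call was lost in 5 of the 6 fits that left out a library, with the highest adjusted p of 0.193 without day 3 replicate 3. The 2 that fell were Clec4n, a lectin receptor for fungal sugars, and Vcam1, an adhesion molecule.

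Among 26 tested transcription factors of the macrophage line, Maf rose and Tfec fell, the latter with a call lost in each of the 6 fits that left out a library (adjusted p 0.0525 to 0.175). Maf, a factor of the mature macrophage, was at 246, 260 and 210 CPM and then at 626, 409 and 412 CPM. All day 5 libraries were higher, replicate 1 most of all (log2 change 1.02 ± 0.21, adjusted p 0.020, 0.112 without day 3 replicate 3). Spi1, which encodes PU.1, was at 349, 256 and 269 CPM and then at 237, 233 and 250 CPM. It was not called, nor were Irf8, Cebpa and Cebpb. None of 17 tested genes of colony-stimulating factor signalling was called by edgeR, with 7 at an unadjusted p under 0.05 and 1 called by DESeq2. The 49 lysosomal genes, all tested, had a median log2 change of -0.04 with 1 call, Naglu, an enzyme of heparan sulfate breakdown, which rose by 0.69 on the log2 scale and lost its call in each of the 6 fits that left out a library (adjusted p 0.0527 to 0.124). Ctsb, the cathepsin with the highest level, was at 10600, 7114 and 7537 CPM and then at 8096, 6394 and 6538 CPM. EdgeR called none of 14 tested complement genes (3 at an unadjusted p under 0.05, 2 called by DESeq2), none of the 6 Fc gamma receptor genes (0 and 0) and none of 36 sterol and fatty acid genes (2 and 1). Over all tested genes 20.6% had an unadjusted p under 0.05. Of 28 tested chemokine receptor and adhesion genes 2 rose, Cx3cr1 and Itga4, and 2 fell, Itgb3 and Pecam1, by 2.53 and 1.91 on the log2 scale. Itga4, the integrin alpha 4 chain, rose from 127, 134 and 108 CPM to 241, 208 and 209 CPM (log2 change 0.83 ± 0.16, adjusted p 0.014, 0.0978 without day 3 replicate 3), and Tlr8, an endosomal RNA sensor, from 60.4, 56.2 and 43.4 CPM to 131, 88.7 and 89.3 CPM, a call lost in each of the 6 fits (adjusted p 0.0618 to 0.180).

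Among the metabolic lists, oxidant defence held the most called genes. Of 27 genes of this list, which holds glutathione, thioredoxin, NADPH and oxidase genes, all were tested, 14 fell and none rose, with a median log2 change of -0.82. Slc7a11, the cystine importer that feeds glutathione synthesis, was at 224, 49.6 and 185 CPM on day 3 and at 17.9, 10.3 and 12.6 CPM on day 5. Replicate 2 was low on day 3 but still above day 5 (log2 change -3.49 ± 0.62, adjusted p 0.011, 0.0671 without day 5 replicate 2). Hmox1, the heme-degrading oxygenase and the member with the highest level, was at 2707, 1980 and 2768 CPM and then at 341, 587 and 589 CPM. The groups lay far apart (log2 change -2.30 ± 0.47, adjusted p 0.020, 0.113 without day 5 replicate 1). Prdx6, a peroxiredoxin, was at 365, 256 and 392 CPM and then at 88.7, 82.3 and 84.5 CPM, and was called in every setting (log2 change -1.99 ± 0.27, adjusted p 0.0027). Srxn1, which repairs oxidised peroxiredoxins, fell by 1.81 and Prdx1 by 1.6 on the log2 scale. The 2 subunits of glutamate-cysteine ligase, Gclm and Gclc, fell by 1.62 and 1.15, glutathione reductase Gsr by 1.27, thioredoxin reductase Txnrd1 by 1.38, the quinone reductase Nqo1 by 1.66 and catalase Cat by 0.94. The enzymes of the pentose phosphate route G6pdx and Pgd, which make NADPH, and Taldo1, a transaldolase, fell by 0.79, 0.96 and 0.87. Of the called members only Prdx6 kept its call in all 6 fits that left out a library. Gclm, Gclc and Cat kept it in 0 of them, and Txnrd1, Nqo1 and Taldo1 in 1. Srxn1, Prdx1 and Hmox1 kept it in 2, G6pdx in 3, and Gsr, Pgd and Slc7a11 in 4. The subunits of the phagocyte oxidase were not called, with Cybb at 0.30 and Ncf1 at -0.07 on the log2 scale, nor was Nfe2l2, the gene of the NRF2 factor, at 0.20. The summed level of the list was 10817 to 14049 CPM on day 3 and 5970 to 6229 CPM on day 5. Ptgr1, an enzyme that removes reactive aldehydes and lipids and is not on the list, had the smallest adjusted p of all genes. It was chosen after its values were seen, at 190, 188 and 261 CPM and then 52.2, 51.5 and 46.6 CPM (log2 change -2.09 ± 0.16, adjusted p 1.7e-05, at most 0.000651 without any 1 library).

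Promoters of 3 oxidant defence genes that fell are shown, all taken from those that hold the motif below. Capitals mark TGACNNNGC, the core of the antioxidant response element bound by NRF2, or its reverse complement. It was searched on both strands and chosen after the values were seen, and it overlaps the AP-1 motif TGACTCA where NNN reads TCA. The windows are RefSeq sequences of build GRCm38.p6 on the plus strand, chr2:152105274-152105573 for Srxn1, chr4:116685349-116685648 for Prdx1 and chr3:122245307-122245606 for Gclm.
Srxn1: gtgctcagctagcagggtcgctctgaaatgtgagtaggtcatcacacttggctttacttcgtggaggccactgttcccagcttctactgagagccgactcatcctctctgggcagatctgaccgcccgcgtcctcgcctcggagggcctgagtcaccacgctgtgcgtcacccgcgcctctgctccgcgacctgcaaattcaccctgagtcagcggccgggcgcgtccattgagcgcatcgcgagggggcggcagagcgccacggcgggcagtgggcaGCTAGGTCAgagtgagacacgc
Prdx1: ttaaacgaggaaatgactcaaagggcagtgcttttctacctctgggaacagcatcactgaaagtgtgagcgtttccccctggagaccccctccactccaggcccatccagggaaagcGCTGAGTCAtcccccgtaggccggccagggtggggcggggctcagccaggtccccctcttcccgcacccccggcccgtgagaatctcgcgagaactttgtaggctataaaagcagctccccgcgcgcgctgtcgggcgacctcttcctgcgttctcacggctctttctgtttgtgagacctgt
Gclm: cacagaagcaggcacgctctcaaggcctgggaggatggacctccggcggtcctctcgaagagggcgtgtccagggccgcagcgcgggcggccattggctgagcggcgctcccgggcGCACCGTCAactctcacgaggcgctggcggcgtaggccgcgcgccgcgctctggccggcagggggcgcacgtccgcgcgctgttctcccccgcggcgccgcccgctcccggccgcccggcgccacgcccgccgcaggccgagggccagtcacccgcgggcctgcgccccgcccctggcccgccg
Of the 14 members that fell, 10 had a promoter in the table and 6 of them held the motif. Over the whole list it was 8 of 21 matched genes (38.1%), against 17.05% of tested genes with a promoter, 18.6% of the matched genes that fell and 21.1% of those that rose.

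Some iron genes fell. Of 15 tested iron genes, with a median log2 change of -0.85, 4 fell and none rose, Hmox1, the ferritin light chain gene Ftl1, the phagosomal metal transporter Slc11a1 and the biliverdin reductase Blvrb. Ftl1 was at 2386, 1764 and 1936 CPM and then at 683, 946 and 1072 CPM (log2 change -1.17, adjusted p 0.025, 0.128 without day 5 replicate 1). The heavy chain gene Fth1, with the highest level of the list, had a log2 change of -0.93 and was not called. Of 26 tested glycolysis and hypoxia genes 1 fell, the glucose-6-phosphate isomerase gene Gpi1, although the groups did not overlap, on the lower side, for 17 of the 26, against 17.9% of all tested genes. Of 46 genes for cytosolic ribosomal proteins 2 fell, Rps2 and Rpsa, which both have many near-identical pseudogenes. Of the 46, 45 had a negative fitted change, with a median log2 of -0.30. The 18 housekeeping genes, some of them also on these lists, had a median log2 change of -0.23. Of these, 15 were negative and none was called. Of 42 tested nuclear genes of the respiratory chain 1 fell, Uqcrfs1, at 82.3, 80.9 and 82.7 CPM and then 59.3, 59.7 and 59.1 CPM. The 7 tested genes encoded in mitochondrial DNA all had positive fitted changes, with a median of 0.74. Every day 5 library was above every day 3 library for each of them, against 17.2% of all tested genes. EdgeR called none and DESeq2 called 5. All 7 had an unadjusted p under 0.05, against 20.6% of all tested genes. The remaining 6 of that list had almost no reads assigned. The mitochondrial ribosomal RNA genes rose. mt-Rnr1 was at 348, 576 and 754 CPM and then at 2823, 2041 and 986 CPM, and mt-Rnr2 at 2817, 4506 and 5395 CPM and then at 15899, 11450 and 8688 CPM. The libraries were made after ribosomal RNA depletion, and its part in these 2 values was not tested. The call of mt-Rnr1 was kept in 3 of the 6 fits that left out a library, and that of mt-Rnr2 in 0. Gpi1, Rps2, Rpsa and Uqcrfs1 kept theirs in 0 as well.

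The DNA replication and mitosis lists held 1 call, while 2.64% of all tested genes were called. None of 45 DNA replication genes was called by edgeR or DESeq2, with a median log2 change of 0.01 and a range of -0.32 to 0.28. Of the 45, 0 had an unadjusted p under 0.05, against 20.6% of all tested genes. Of 53 mitosis genes 1 rose and none fell, with a median of 0.43. An unadjusted p under 0.05 was reached by 13 of the 53, all higher on day 5. For 37 of the 53 every day 5 library was above every day 3 library, against 17.2% of all tested genes, and none was so on the lower side. The called gene was Cdc25b, a phosphatase that starts mitosis, at 54.2, 62.4 and 43.0 CPM and then 115, 76.6 and 81.8 CPM (log2 change 0.78 ± 0.20, adjusted p 0.049), and the call was lost whichever library was left out, with an adjusted p between 0.054 and 0.238. Mki67, the proliferation marker, was at 707, 766 and 500 CPM and then at 1263, 1043 and 1120 CPM. The groups did not overlap, and the change was not called (log2 change 0.80 ± 0.37, adjusted p 0.23). Pcna, the replication clamp, was at 379, 344 and 330 CPM and then at 260, 287 and 295 CPM, and Cdkn1a, which encodes the p21 inhibitor, at 438, 340 and 348 CPM and then at 187, 335 and 344 CPM. Neither was called. Of 33 tested apoptosis regulators and p53 targets Mdm2 and Bax fell, by 1.15 and 0.53 on the log2 scale. H3f3a was at 59.3, 49.1 and 56.1 CPM and then at 45.9, 47.1 and 48.1 CPM, and H3f3b at 249, 231 and 221 CPM and then at 199, 231 and 223 CPM. Neither H3.3 gene was called (adjusted p 0.40 and 0.73), nor was any of the other 14 genes of that list (2 of its 16 at an unadjusted p under 0.05, 0 called by DESeq2) or of 42 tested replication-coupled histone genes (0 and 0).

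Most interferon genes had positive fitted changes, with the highest levels in day 5 replicate 1. Of 53 tested canonical interferon genes 1 rose, beside 0.602% of all tested genes. A positive fitted change was seen in 51, with a median log2 of 1.04 over the list. For 37 every day 5 library was above every day 3 library, against 17.2% of all tested genes. DESeq2 called 10 of the 53 higher. The gene that rose was Oas2, an antiviral synthetase, at 5.38, 3.28 and 4.04 CPM on day 3 and at 49.4, 8.55 and 8.81 CPM on day 5 (log2 change 2.39 ± 0.56, adjusted p 0.036). Replicate 1 of day 5 was far above the other 2, and without it the adjusted p was 0.182. The call was lost in 4 of the 6 fits that left out a library. Irf7, a factor induced by interferon, was at 6.67, 4.22 and 3.48 CPM and then at 34.2, 7.23 and 8.04 CPM, and was not called. The summed level of the list was 738 to 1054 CPM on day 3, 2642 CPM in day 5 replicate 1 and 1137 and 1140 CPM in the other day 5 libraries.

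The called chemokine and matrix genes were all lower on day 5, and 2.64% of all tested genes were called in either direction. Of 19 tested chemokine genes 2 fell, Ppbp and Cxcl3, with a median log2 change of -1.04, or -0.87 when the member without counts on day 5 was set to its bound, and -0.14 without day 3 replicate 1. Ccl2, the monocyte attractant and the member with the highest level, was at 1342, 787 and 689 CPM and then at 130, 309 and 286 CPM. Its groups did not overlap and it was not called (log2 change -1.96 ± 0.77, adjusted p 0.17). Il1b was at 8.99, 3.11 and 6.45 CPM and then at 0.894, 0.552 and 0.670 CPM and was not called either. Il18 was the 1 called cytokine of 23 tested inflammatory genes. It rose from 2.59, 2.70 and 2.36 CPM to 4.47, 4.14 and 3.81 CPM (adjusted p 0.047), and the call was lost in each of the 6 fits without a library (0.0821 to 0.180). Of 13 matrix metalloproteinases and inhibitors 2 fell, the neutrophil collagenase Mmp8, from 284, 222 and 374 CPM to 73.1, 129 and 132 CPM, and Mmp25. Of 12 tested genes of alternative activation Arg1 and Chil3 fell. Arg1, which breaks down arginine, was at 81.9, 12.8 and 9.26 CPM and then at 2.27, 4.75 and 5.05 CPM, with an adjusted p of 0.318 without day 3 replicate 1. Apoe, a lipid carrier, was at 168, 77.2 and 49.2 CPM and then at 324, 248 and 286 CPM. Its groups did not overlap and it was not called (log2 change 1.54, adjusted p 0.16).

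Where the mean log2 CPM over the 6 libraries reached 3, the 12 largest falls were Ctsg, Slc7a11, Prtn3, Slpi, Mpo, Elane, Arg1, F10, Hp, Plac8, Cd177 and Camp. Slpi, a protease inhibitor, was at 50.1, 16.3 and 42.2 CPM and then at 2.98, 3.15 and 4.48 CPM. F10, the coagulation factor X gene, was at 20.5, 19 and 49.6 CPM and then at 3.64, 3.59 and 3.97 CPM and kept its call without any 1 library. The 12 largest rises were Oas2, St6gal1, Cx3cr1, mt-Rnr1, Ifi203, P2ry12, Frmd4b, mt-Rnr2, Zfp36l1, Arsb, 9930111J21Rik2 and Mef2c, and none of these kept its call in all 6 fits without a library. St6gal1, a sialyltransferase, was at 12.1, 14.6 and 9.76 CPM and then at 82.9, 40.8 and 49.7 CPM (log2 change 2.25 ± 0.46, adjusted p 0.020, 0.123 without day 3 replicate 3). Mef2c, a transcription factor of microglia and other cells, was at 43.7, 61.5 and 43.5 CPM and then at 134, 111 and 110 CPM (log2 change 1.26 ± 0.27, adjusted p 0.026, 0.138 without day 3 replicate 3). P2ry12, a nucleotide receptor known from microglia, was at 7.70, 6.09 and 3.09 CPM and then at 21.5, 14.8 and 14 CPM. Every day 5 value was above every day 3 value for these 3 genes, as the rule for this selection required. The 3 genes that rose in all 6 fits without a library, chosen after their values were seen, were at lower levels or changed less. Ap1s2, an adaptor subunit of vesicle transport, was at 60.7, 64.5 and 59.2 CPM and then at 96.5, 105 and 96.8 CPM. Plscr4, a phospholipid scramblase, was at 4.97, 3.34 and 3.93 CPM and then at 14.6, 9.82 and 10.4 CPM, and Nectin4, an adhesion molecule, at 2.59, 1.64 and 1.57 CPM and then at 9.48, 6.13 and 5.67 CPM.

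**Figure D3:**
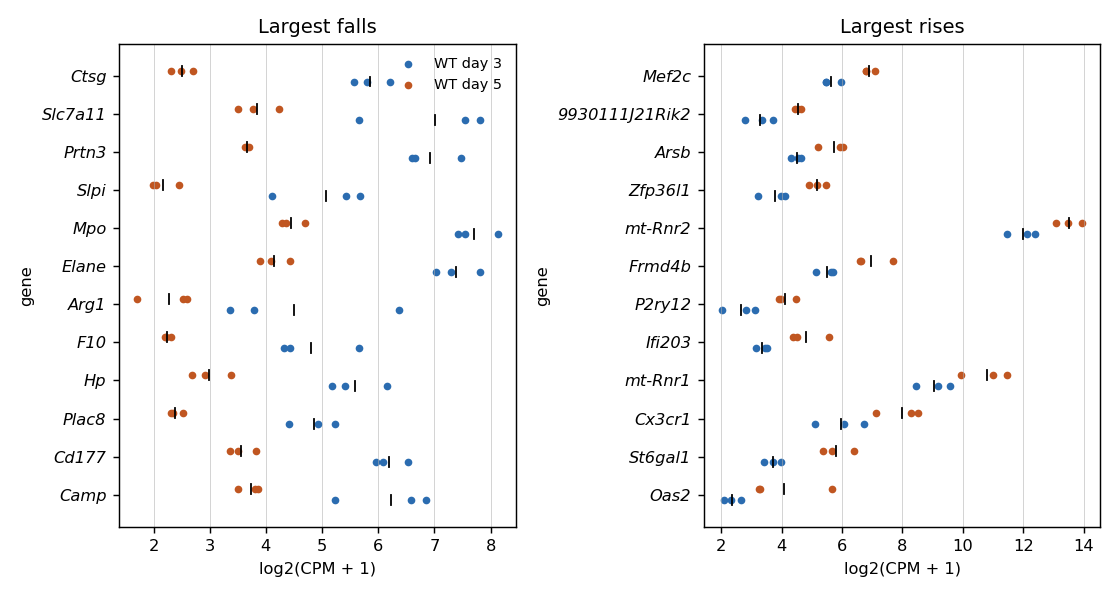
Log2(CPM + 1) of each WT library (x axis) for the 12 genes with the largest called falls and the 12 with the largest called rises (y axis), day 3 in blue and day 5 in orange, with black ticks at the mean of 3. Days do not overlap for any of the genes, since the selection required it, and Oas2 shows 1 day 5 library far from the other 2.

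The next step, from day 5 to day 7, shares the day 5 libraries. By itself it called 38 genes (0.238%), 12 higher (0.0752%) and 26 lower (0.163%). Mpo was at 3.33, 0.419 and 3.05 CPM on day 7 and Elane at 1.25, 0.699 and 1.65 CPM, below all day 5 libraries. Slc7a11 was at 9.33, 2.45 and 5.68 CPM, and Ptgr1 at 34.4, 32.9 and 40.9 CPM. Cx3cr1 was at 172, 148 and 224 CPM, within the day 5 range, and Maf at 707, 1082 and 759 CPM, above it. Mki67 was at 584, 307 and 1042 CPM. Of the 326 genes that fell, 251 had a day 7 mean below the day 5 mean, and of the 96 that rose, 68 had a day 7 mean above it. Both counts rest on the day 5 libraries that chose the genes, and the shares over all tested genes were not computed. The counts therefore do not show by themselves that the changes went on. Whether the second step differed from the first was tested directly in edgeR. No gene was called (smallest adjusted p 0.608), with 1201 genes at an unadjusted p under 0.05 (7.53%), and DESeq2 called 7 genes.

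**Figure D4:**
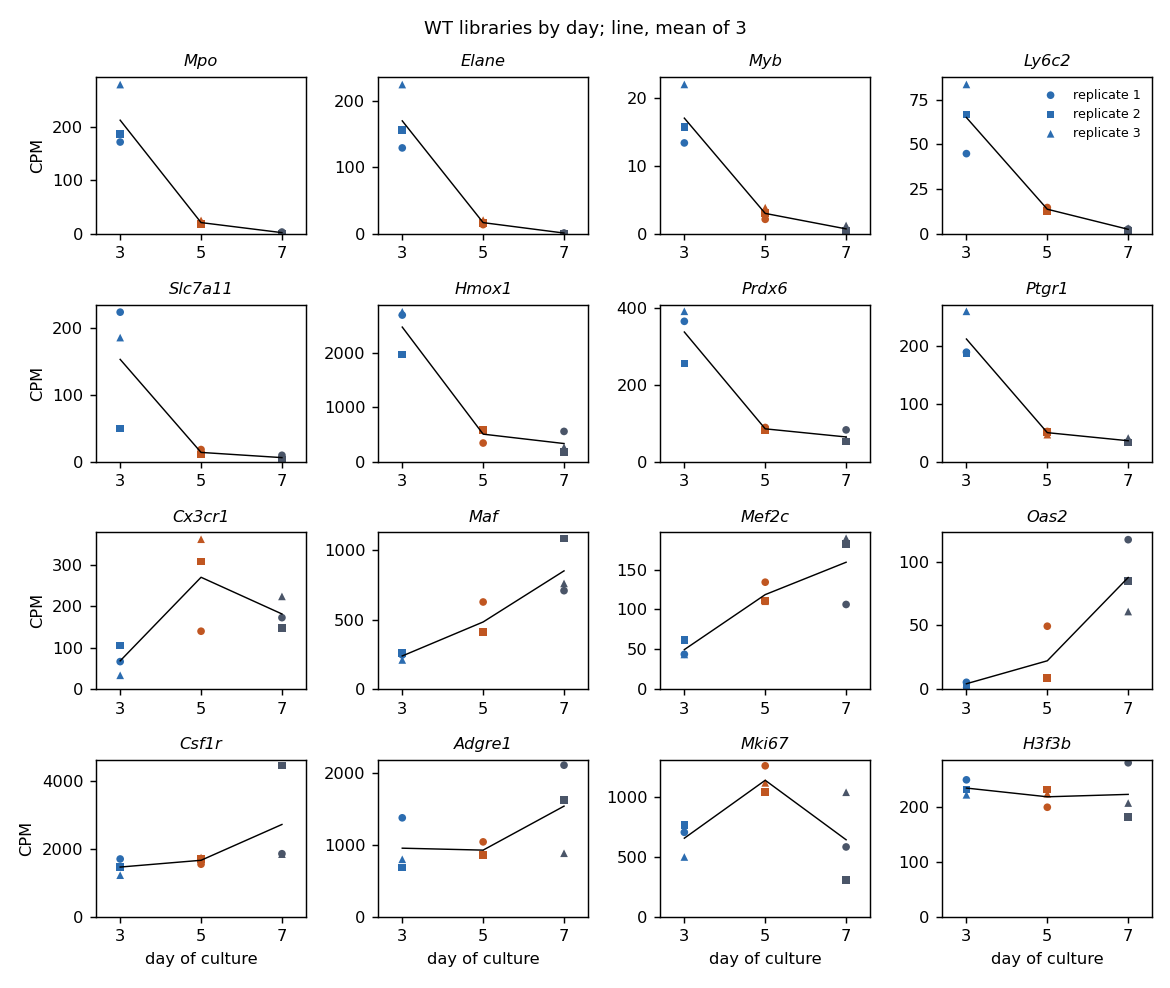
CPM (y axis) of 16 genes in the 3 WT libraries of days 3, 5 and 7 (x axis). Symbols mark replicate numbers, which are not known to pair libraries, and lines join the means of 3. Granule and oxidant defence genes drop between days 3 and 5, Cx3cr1 and Maf are higher on day 5, and Csf1r, Adgre1 and H3f3b show no called change.

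The H3.3 conditional knockout (cKO) cells of the same experiment, which carry LysM-cre in addition to the floxed alleles, provided a second pair of day 3 and day 5 groups that shares no library with WT. LysM-cre deletes in cells that express lysozyme M. Both pairs were fitted in 1 model with a shared estimate of the spread. Of the 326 genes that fell in WT, 322 (98.8%) had a negative fitted change in cKO, against 51.8% of all tested genes, and 165 (50.6%) were called lower there, which is 46.1% of the 358 genes that fell in cKO (2.24% of tested genes). Of the 96 genes that rose in WT, 87 (90.6%) had a positive change in cKO, against 48.2% of all tested genes, and 27 (28.1%) were called higher, which is 12.6% of the 215 that rose in cKO (1.35%). No gene was called in opposite directions. The median log2 change of the WT fallers was -1.37 in cKO, and that of the WT risers 0.54, beside -0.015 over all tested genes.

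Named genes were side by side as follows. Mpo changed by -1.92 ± 0.46 on the log2 scale in cKO and by -3.33 ± 0.49 in WT, and Ctsg by -2.16 ± 0.41 and -3.62 ± 0.45. Ptgr1 changed by -1.56 ± 0.16 in cKO and -2.09 ± 0.16 in WT. Cx3cr1 changed by 2.87 ± 0.52 and 1.98 ± 0.50, Itga4 by 0.83 ± 0.16 in each, and Maf by 0.27 ± 0.20 and 1.02 ± 0.21. Hmox1, at -1.15 ± 0.46 in cKO, was not called there (adjusted p 0.18). The difference between the 2 genotypes' steps was tested gene by gene, and edgeR called none of the 15955 genes (smallest adjusted p 0.868), with 715 at an unadjusted p under 0.05 (4.48%). DESeq2 called 3, Jup, Plpp2 and Ttc28. EdgeR called 2, Nectin4 and Ttc28, without cKO day 5 replicate 1 and 1, Ahnak2, without WT day 3 replicate 3, and none without any other library. A simulation with this design recovered 40% of genes given a 2-fold difference between the steps and 92% of those given a 4-fold one. Only genes above a minimum mean level were changed in it, and each gene was drawn independently. These shares therefore do not cover genes of low level or data in which a whole library deviates.

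**Figure D5:**
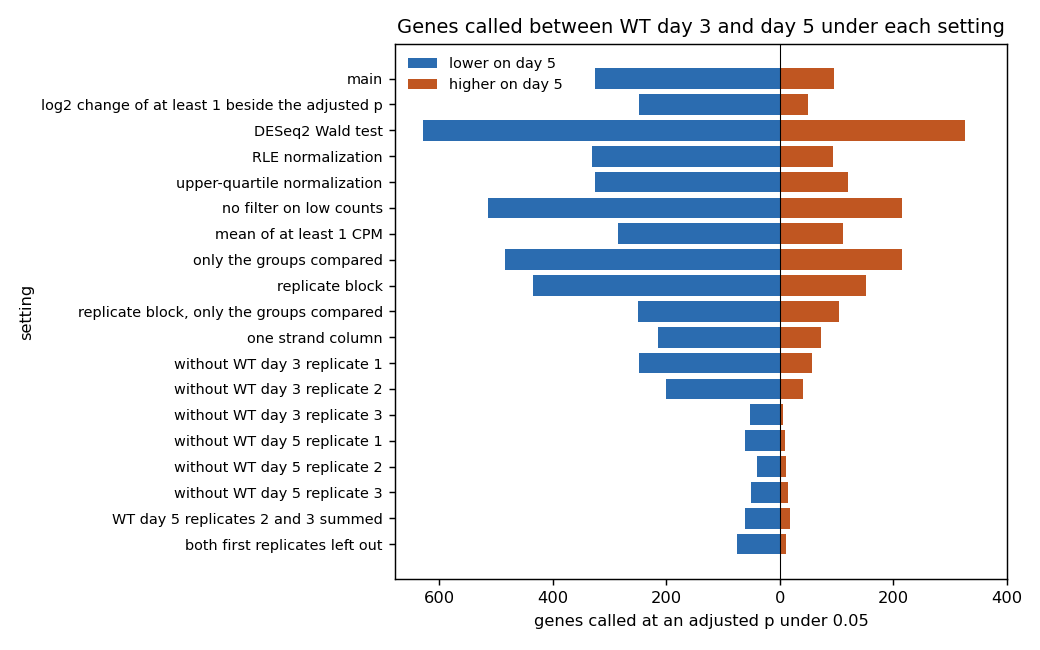
Number of genes called lower (blue, left of 0) and higher (orange, right of 0) on day 5 in each setting on the y axis; the x axis counts genes at an adjusted p under 0.05. Lower genes outnumber higher ones in every setting, and the total runs from 51 without day 5 replicate 2 to 956 with DESeq2.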

How the data were processed

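The authors deposited, per library, counts of reads per gene on an Ensembl mouse annotation. Per the labels, adapters were trimmed with Cutadapt and reads aligned to mm10 with STAR. The study's methods also name RSEM and SARTools, which the deposited counts do not use. The libraries were paired-end, from total RNA after ribosomal RNA depletion. The unstranded column was used, since both strand columns held about equal totals; reads from a gene and an antisense partner therefore cannot be told apart, reads mapping to several places were not counted, and close paralogs are uncertain.

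The 18 time course libraries, 3 for each of WT and cKO on days 3, 5 and 7, were fitted together with edgeR 4.0.16 in R 4.3.3, using TMM scaling, filterByExpr and the quasi-likelihood test, with Benjamini-Hochberg adjustment over all 15955 genes tested and a threshold of 0.05. DESeq2 1.42.0 was an alternative. The 3 tests were WT day 5 against day 3, the difference between the cKO and WT steps, and the difference between the 2 WT steps. The fit was tested on simulated data for the main comparison, where it recovered 80% of 2-fold and 97% of 4-fold changes with 3 false calls, among 15509 genes tested. The simulation changed no genes of low level and held no library that deviated as a whole. Other libraries of the series were not analysed here. Some genes are not reported here.

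Named genes were a fixed set, the 12 largest called rises and falls at a mean log2 CPM of at least 3 without overlap between groups, and in each of 44 gene lists the 4 called members of largest change at a mean of at least 10 CPM and the member with the highest mean. Other genes in the text were chosen after their values were seen, among them the B lineage and basophil genes other than Blnk, Gfi1, Cebpe, Nkg7, Vcan, Il18 and most oxidant defence genes. Members and lists were chosen with earlier results of these data known. Sequences came from RefSeq by symbol; 10605 of 15955 tested genes matched.

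Replicate numbers were checked for pairing. Deviations from the day means correlated at 0.108, 0.187 and -0.0751 for replicates 1, 2 and 3 of the 2 days. Libraries of different numbers correlated at -0.205 to 0.191, the last for day 3 replicate 2 with day 5 replicate 3. Day 5 replicates 2 and 3 were close to each other, so the check cannot decide whether the numbers pair libraries. The labels do not say, and the main fit used no pairing. Floors cover counting error only, while the standard errors of the fit include the spread between libraries.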

Additional observations from a re-analysis of the deposited data

How the results depend on the processing

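Against 422 called genes between WT day 3 and day 5, DESeq2 called 956, no filter on low counts 728 and only the 6 libraries compared 698. The fit on those 6 libraries alone shared 317 genes with the 422. Leaving out 1 library at a time gave 51 to 303 calls. Summing day 5 replicates 2 and 3 into 1 library gave 79, and leaving out the first replicate of both days gave 86, both chosen after seeing the data. Other normalizations, a mean of at least 1 CPM, 1 strand column and a log2 change of at least 1 gave 287 to 447. With the replicate number as a block the count was 586, and 354 with only the groups compared. Whether the numbers pair the libraries is not known. For the difference between the cKO and WT steps DESeq2 called 3 and leaving out 1 library gave 0 to 2; for the 2 WT steps DESeq2 called 7 and no filter 8. The replicate block left both at 0. The median log2 change of the erythroid list turned to 0.41 with a mean of at least 1 CPM, 0.37 with only the groups compared and 0.34 with the block added, since fewer members were then tested. That of the cell cycle brakes turned to -0.020 without both first replicates; the cause was not tested. Of the 117 named genes that were called, 28 kept the call in all 6 fits without a library and none changed sign in any setting. At this depth genes under 1 CPM rest on few reads.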

Other observations

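Several genes outside the lists fell and kept their call in all 6 fits that left out a library; they were chosen for that after their values were seen. Hal, which starts histidine breakdown, was at 10.1, 6.68 and 12.7 CPM on day 3 and at 1.25, 1.27 and 1.24 CPM on day 5. Rab44, a large Rab GTPase of granulated blood cells, was at 17.9, 36.2 and 42.1 CPM and then at 5.61, 6.90 and 7.68 CPM. Lta4h, the enzyme that makes leukotriene B4, was at 101, 116 and 123 CPM and then at 70.3, 72.3 and 71.7 CPM, a small shift with little spread within a day. Ffar2, a receptor for short-chain fatty acids, was at 3.68, 4.16 and 5.10 CPM and then at 0.835, 0.993 and 1.13 CPM. Ncam1, a cell adhesion molecule, was at 5.45, 8.26 and 9.54 CPM and then at 1.91, 2.43 and 2.63 CPM. The days did not overlap for any of these 5 genes.

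Day 5 replicate 1 also differed in lipid genes. Scd2, a fatty acid desaturase, was at 1535 CPM there, at 62.7 and 76.0 CPM in the other day 5 libraries and at 111 to 203 CPM on day 3. The summed level of the 36 sterol and fatty acid genes was 5585 CPM there, 2086 and 2161 CPM in the other 2 and 2179 to 2660 CPM on day 3. Abca1, the cholesterol exporter, was at 586 CPM there and at 141 and 151 CPM in the others, against 250, 63.0 and 42.3 CPM on day 3.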
